A study of Homo sapiens with 6 samples.

Results

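RBM19 and 36 other genes of small ribosomal subunit assembly were followed through the RNA-seq libraries of HEK293 cells in which the zinc finger gene ZNF507 or ZNF146 had been disrupted with CRISPR/Cas9. The genes were listed by name, from the proteins that make up or act on the small-subunit processome, without a threshold on measured values, but with earlier results of these libraries known, so that the result for RBM19 is not independent of its choice. The study itself had listed RBM19 among the genes that changed after ZNF507 disruption, by DESeq2 on counts from this experiment. All 37 were matched by symbol to the count table of 57773 genes, and all 37 passed the filter on low counts, as 22010 genes in all did. Of these 37 genes, RBM19 rose in the ZNF507-disrupted cells, from 128 ± 5.32 CPM (counts scaled to the size of the library, SD, n = 2) in the control to 206 ± 4.35 CPM (SD, n = 2), and was 132 ± 5.48 CPM (SD, n = 2) in the ZNF146-disrupted cells. None of the other 36 passed the test in either disruption against the control. Of all genes tested, 0.182% passed it in the ZNF507-disrupted cells and 0.0% in the ZNF146-disrupted cells.

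HEK293 is an established line grown from human embryonic kidney. The targeted groups were transfected transiently with the Cas9 and puromycin-resistance plasmid PX459, and the control with an empty vector. Every group was kept in puromycin for 36 h and grown out for 2 weeks in total. The control plasmid had no guide (EV), the second group received plasmids for 4 guides to ZNF146 (sgZNF146) and the third group plasmids for 4 guides to ZNF507 (sgZNF507). The study does not say outright that the empty vector held Cas9. EV was the only group that received no guide. The cells were transfected populations and not clones, so a group can hold edited and unedited cells. In such bulk RNA, fewer cells with a transcript and less transcript per cell cannot be told apart. Each group had 2 libraries, described as biological duplicates, made from total RNA after ribosomal depletion with a strand-specific kit. The p-values of the main fit rest on the spread between libraries of a group, estimated over all 6 libraries at once. With 2 libraries a group, they speak only for these samples.

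The libraries held 22724439 to 28524025 counts, and the 37 genes received between 623 and 8748 counts per gene and library. ZNF507 read 72.0 and 75.5 CPM in EV, 71.3 and 73.3 CPM in sgZNF146 and 47.2 and 48.7 CPM in sgZNF507. It fell by 0.62 on the log2 scale against EV (standard error 0.07, adjusted p = 0.00195), where adjusted p-values come from the quasi-likelihood test of edgeR and the Benjamini-Hochberg method, taken over every gene that was tested. ZNF146 read 115 and 105 CPM in EV, 99.2 and 103 CPM in sgZNF146 and 88.4 and 101 CPM in sgZNF507. Its log2 fold change with its own guides was -0.13 against EV, with a standard error of 0.08 and an adjusted p of 1.00 from edgeR. Both sgZNF146 libraries thus lay below both EV libraries, by a difference that did not pass the test. According to the study, both targeted proteins were essentially undetectable by western blot in the cells targeted for them. It also found insertions and deletions at the guide sites in the RNA reads. Counts per gene show neither. Against EV the log2 fold change of ZNF146 was -0.21 in sgZNF507, where no guide to it was used (adjusted p = 1.00, edgeR). Of 10 embryonic kidney and HEK293 markers matched, 9 averaged at least 1 CPM, with PAX8 below it, and their summed level lay between 1466 and 1642 CPM per library. Markers of differentiated kidney summed to between 4.35 and 5.46 CPM. Of these 8 markers, 2 averaged at least 1 CPM and 2 were at 0 in every library. Of 7 matched markers of other cell types, 2 averaged at least 1 CPM and 1 was at 0 throughout. Nearly all of their summed level was the collagen gene COL1A1, and the sum was 63.4 and 65.4 CPM in EV, 61.0 and 65.5 CPM in sgZNF146 and 75.8 and 68.6 CPM in sgZNF507, highest in the group in which RBM19 rose. The part of this in the RBM19 result was not tested.

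Ribosome assembly starts in the nucleolus, where RNA polymerase I transcribes a long precursor that holds the 18S, 5.8S and 28S ribosomal RNAs. The small-subunit processome is the large particle that forms on the 5′ part of this precursor, folds the future 18S RNA and lets it be cut free. The UTP-A and UTP-B complexes coat the leader of the precursor, the U3 small nucleolar RNA and its box C/D proteins pair with it, and enzymes and scaffold proteins then shape the particle into a precursor of the 40S subunit. RBM19, the human counterpart of yeast Mrd1, is a protein with several RNA recognition motifs that binds the precursor and is needed for the early cuts around 18S. Dividing cells such as HEK293 express the whole set.

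RBM19 (ENSG00000122965) is a minus-strand gene at chr12:114254543-114404130 (GRCh37). It was counted 3093 and 3643 times in the EV libraries, 3248 and 3415 times in sgZNF146 and 4666 and 6044 times in sgZNF507. Scaled to library size, these are 124 and 132 CPM in EV, 128 and 136 CPM in sgZNF146 and 202 and 209 CPM in sgZNF507. Both sgZNF507 libraries were above all 4 others, while the EV and sgZNF146 libraries overlapped, as the plot of RBM19 by library shows. The replicates lay close together in every group, with replicate 1 below replicate 2 by 0.08, 0.08 and 0.04 on the log2 scale in EV, sgZNF146 and sgZNF507.

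**Figure D1:**
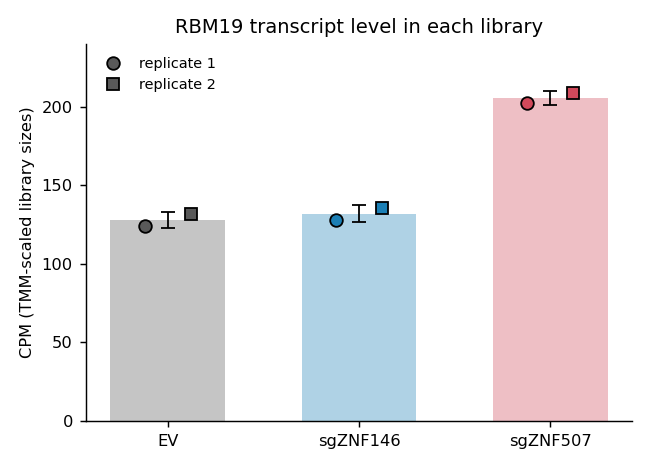
RBM19 level in each library, in CPM (y axis, from 0) by group (x axis); points are libraries, bars the mean and whiskers the SD of 2 libraries. The sgZNF507 libraries sit at 202 and 209 CPM and the 4 other libraries between 124 and 136 CPM.

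Between sgZNF507 and EV the log2 fold change of RBM19 was 0.68 (standard error 0.06, 95% interval 0.55 to 0.82), or 1.61-fold, with an adjusted p of 0.000307 in edgeR's quasi-likelihood test. DESeq2 called RBM19 too, with a log2 fold change of 0.69 and an adjusted p of 3.6e-15. Between sgZNF146 and EV the log2 fold change was 0.04 (95% interval -0.09 to 0.18) with an adjusted p of 1.00. The 2 disrupted groups differed as well, by a log2 fold change of 0.64 (95% interval 0.50 to 0.78, adjusted p = 0.000728) in sgZNF507 over sgZNF146, which is the direct test of the difference between the disruptions. These comparisons share libraries, and the fit was made on all 6 at once. RBM19 overlaps an antisense gene (ENSG00000257359) by 130 bases of exon, and this gene had 5 to 13 counts per library, few beside the 3093 to 6044 of RBM19.

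The bases just upstream of RBM19 are shown because RBM19 was the member whose level changed. They were taken from RefSeq on GRCh38.p14, where the window runs over chr12:113966326-113966575 on the minus strand, and end at the last base before the annotated start. The capitals mark TCACGTG, read on either strand, an E-box of the kind that bHLH-leucine zipper factors such as MYC and TFEB bind, and it begins 16 bases before the start.
RBM19: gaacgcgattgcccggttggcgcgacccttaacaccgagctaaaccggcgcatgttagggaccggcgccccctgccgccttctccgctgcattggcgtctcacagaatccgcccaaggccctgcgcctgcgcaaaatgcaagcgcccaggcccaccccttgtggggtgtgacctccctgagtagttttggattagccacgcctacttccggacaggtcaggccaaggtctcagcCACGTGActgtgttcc

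A RefSeq window of the same 250 bases was matched for 34 of the 37 symbols. TCACGTG on either strand stood in 4 of these 34 genes (11.8%) and in 3.31% of all 35116 windows, and the shorter palindrome CACGTG that it contains stood in 6 of 34 (17.6%) against 6.34% of all windows. Here and below, members were counted by gene and the background by window, over all genes, expressed or not. The shares are thus of unlike units and sets, and their difference was not tested. A match of these letters is a description of the sequence and says nothing of a factor bound there. The stretches around TCACGTG in the other 3 genes that hold it are shown to set them beside RBM19, in the direction of transcription and with the match in capitals, from chr12:101280075-101280104, chr17:51260436-51260482 and chr2:130342673-130342719 on the plus strand of GRCh38.p14.
UTP20: gcgccgttcttttttccgtcCACGTGAccc
UTP18: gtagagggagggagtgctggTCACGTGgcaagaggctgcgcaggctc
IMP4: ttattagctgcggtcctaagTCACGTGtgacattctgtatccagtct

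The match began 10 bases before the start in UTP20, 90 in UTP18 and 204 in IMP4. The log2 fold changes of these 3 genes in sgZNF507 against EV were 0.14, 0.13 and 0.01, and none passed the test. NAT10 and UTP14A, which hold CACGTG without the preceding T, had log2 fold changes of -0.06 and -0.03. The ETS-type letters CCGGAAG stood in RBM19 and in 10 other members (32.4% of 34, against 8.52% of all windows), and those 10 had log2 fold changes between -0.11 and 0.13. The letters AAGATGGCG, read as well, were absent from RBM19. They stood in 2 of the 34 genes, IMP4 and TBL3 (5.88%, against 0.652% of all windows).

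Over the 37 genes, 1 was called in sgZNF507 against EV, which is RBM19, beside 0.182% of all genes tested. By DESeq2 it was again RBM19 alone, beside 0.215% of all genes. At an unadjusted p under 0.05 none of the other 36 was reached, where 3.39% of all genes tested were. In sgZNF146 against EV no member was called, beside 0.0% of all genes by edgeR and 0.0% by DESeq2, and no member had an unadjusted p under 0.05, beside 2.43% of all genes. In sgZNF507 against sgZNF146, RBM19 was the member called by edgeR (0.173% of all genes) and by DESeq2 (0.193% of all genes). WDR46 was the 1 other member reached there at an unadjusted p under 0.05, beside 4.03% of all genes.

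**Figure D2:**
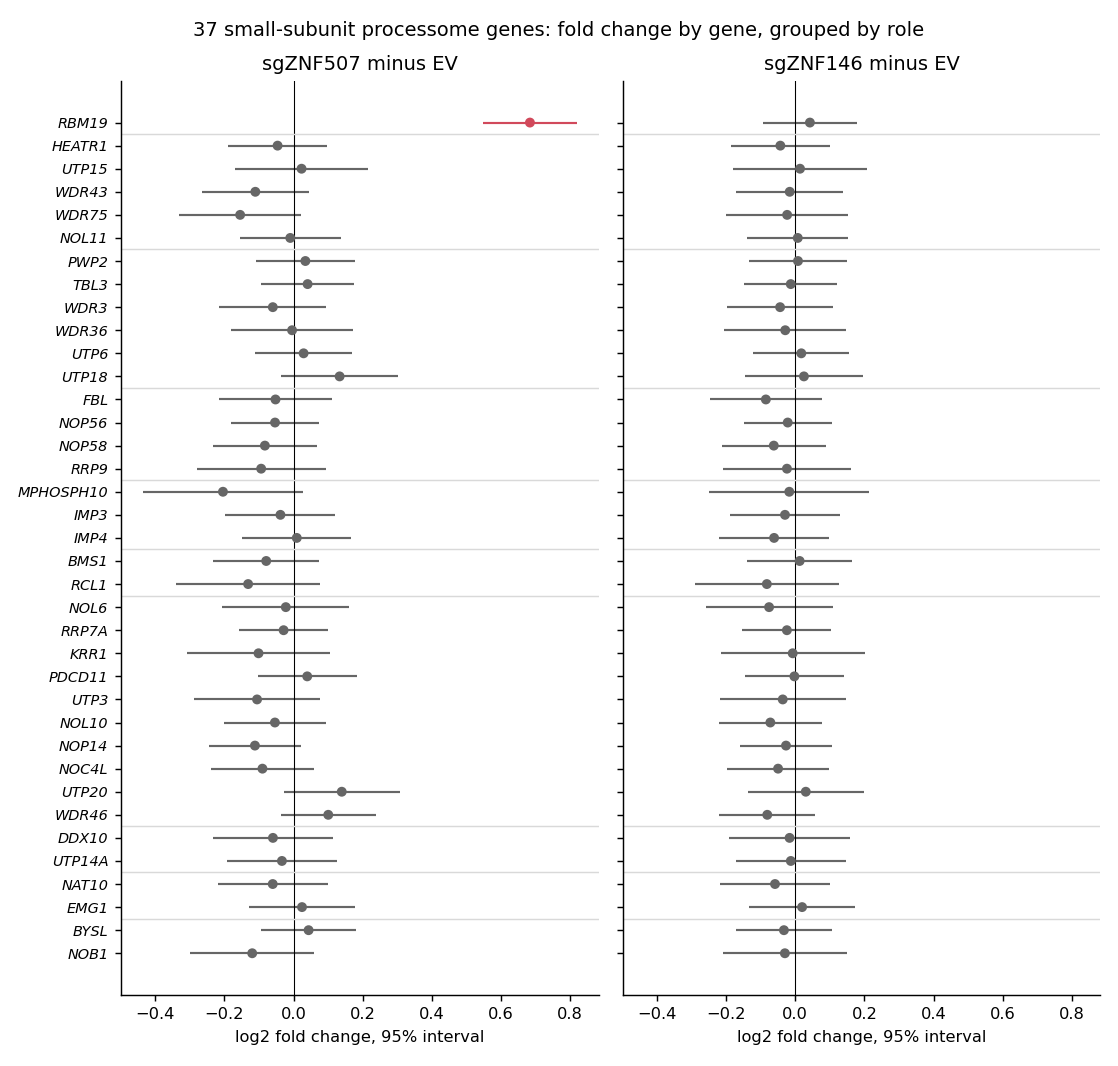
Fitted log2 fold change (points) with its 95% interval (lines) for each of the 37 genes (y axis, grouped by role and separated by pale lines), in sgZNF507 minus EV (left) and sgZNF146 minus EV (right). RBM19 on the left, in red, is the gene past the threshold, at 0.68, and the intervals of the other 36 in that panel lie between -0.44 and 0.31 and all include 0.

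The standard errors of the members' log2 fold changes in sgZNF507 against EV ran from 0.06 to 0.11. The 95% intervals of the 36 reached no higher than 0.31, or 1.24-fold, for UTP20, and no lower than -0.44, or 0.739-fold, for MPHOSPH10. In sgZNF146 against EV they lay between -0.29 (RCL1) and 0.21 (MPHOSPH10). A change of the size of that of RBM19 thus lies outside the interval of each of the 36 in both comparisons, while smaller changes lie within them.

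The UTP-A complex binds the nascent precursor first and links its assembly to transcription by RNA polymerase I. None of its 5 members measured here passed the test, and their log2 fold changes in sgZNF507 against EV ran from -0.15 to 0.02. WDR75, a WD-repeat subunit, read 54.2 and 48.9 CPM in EV, 50.1 and 51.4 CPM in sgZNF146 and 44.6 and 48.0 CPM in sgZNF507. Its sgZNF507 libraries were both below the other 4, by a log2 fold change of -0.15 against EV (95% interval -0.33 to 0.02, adjusted p = 1.00). Of all genes tested, 15.3% had both sgZNF507 libraries below both EV libraries. WDR43, another WD-repeat subunit, read 158 and 156 CPM in EV, 150 and 161 CPM in sgZNF146 and 136 and 155 CPM in sgZNF507, with a log2 fold change of -0.11 (95% interval -0.27 to 0.04). UTP15 was the lowest of all members per length in EV, and it overlapped between the groups at 30.1 and 31.5 CPM in EV, 32.0 and 30.2 CPM in sgZNF146 and 29.8 and 32.8 CPM in sgZNF507. The scaffold HEATR1 and the metazoan subunit NOL11 had log2 fold changes of -0.05 and -0.01.

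The UTP-B complex, built largely of WD-repeat proteins, joins after UTP-A and bridges the precursor and U3. Its 6 members did not pass the test, and the EV and sgZNF507 libraries overlapped for all 6. So they did for 15553 of the 22010 genes tested, so this overlap is no trait of the complex. UTP18 had the highest log2 fold change of the complex, 0.13 (95% interval -0.04 to 0.30), from 70.6 and 64.8 CPM in EV to 78.4 and 70.2 CPM in sgZNF507, with 70.7 and 67.0 CPM in sgZNF146. Its lower sgZNF507 library was thus below the higher EV library. The others, PWP2, TBL3, WDR3, WDR36 and UTP6, lay between -0.06 (WDR3) and 0.04 (TBL3).

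The box C/D proteins hold the U3 RNA. FBL, the methyltransferase fibrillarin, had the highest level per length of the 37 genes and read 276 and 266 CPM in EV, 270.1 and 240.5 CPM in sgZNF146 and 276 and 246 CPM in sgZNF507. Its log2 fold change of -0.08 in sgZNF146 against EV was the lowest among the members in that comparison (95% interval -0.25 to 0.08), with sgZNF146 replicate 1 inside the EV range. NOP56 and NOP58, the paired core proteins, and RRP9, the U3-specific subunit, had log2 fold changes in sgZNF507 against EV of -0.05, -0.08 and -0.09, and none of the 4 passed the test. Both NOP56 and NOP58 host small nucleolar RNA genes on the same strand that overlap bases annotated as their exons, and HEATR1 and TBL3 overlap another gene in the same way, so some of their reads could be assigned to either gene. On the opposite strand, 15 members overlap exons of another gene, RBM19 among them. The study's methods do not say whether genes were counted by strand.

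MPHOSPH10, the human MPP10, brings IMP3 and IMP4 to the particle, where they help U3 pair with the precursor. MPHOSPH10 had the lowest log2 fold change of the 37 in sgZNF507 against EV, -0.20 (standard error 0.11, 95% interval -0.44 to 0.03, adjusted p = 1.00). It read 40.8 and 45.2 CPM in EV, 42.2 and 42.9 CPM in sgZNF146, and 32.8 and 41.7 CPM in sgZNF507. The low value was that of sgZNF507 replicate 1, and replicate 2 lay inside the EV range. IMP3 and IMP4 had log2 fold changes of -0.04 and 0.01. Of BMS1, a GTPase, and its partner RCL1, which resembles RNA cyclases, RCL1 was the lower, at -0.13 (95% interval -0.34 to 0.08). RCL1 read 27.6 and 27.7 CPM in EV, 25.4 and 26.9 CPM in sgZNF146 and 27.0 and 23.6 CPM in sgZNF507, so that both disrupted groups lay below EV in both libraries, by less than the test could tell from 0. Of all genes tested, 15.3% lay below EV in this way in sgZNF507 and 14.6% in sgZNF146.

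Of 10 single scaffold and RNA-binding factors, none passed the test. UTP20, a very large helical-repeat protein, had the highest log2 fold change after RBM19 in sgZNF507 against EV, 0.14 (95% interval -0.03 to 0.31, adjusted p = 1.00). It read 121 and 122 CPM in EV, 115 and 132 CPM in sgZNF146 and 126 and 141 CPM in sgZNF507, so the sgZNF507 libraries lay above EV but one of them was below an sgZNF146 library. WDR46, which nucleates part of the particle, read 90.7 and 94.5 CPM in EV, 87.5 and 87.7 CPM in sgZNF146 and 101 and 97.2 CPM in sgZNF507. The 3 groups of WDR46 did not overlap, with a log2 fold change of 0.10 in sgZNF507 against EV, -0.08 in sgZNF146 against EV and 0.18 (95% interval 0.04 to 0.32) in sgZNF507 against sgZNF146. None of these 3 differences passed the test after adjustment. Of all genes tested, 14.0%, 14.6% and 15.5% were apart in the same direction in these comparisons. The other 8, NOL6, RRP7A, KRR1, PDCD11, UTP3, NOL10, NOP14 and NOC4L, lay between -0.11 (NOP14) and 0.04 (PDCD11) in sgZNF507 against EV.

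The enzymes that act on the particle or late in its maturation did not pass the test either. The helicase DDX10 and UTP14A, the activator of another helicase, had log2 fold changes in sgZNF507 against EV of -0.06 and -0.03. NAT10, which acetylates cytidines of 18S RNA, stood at -0.06 and EMG1, which methylates a pseudouridine of it, at 0.02. BYSL, a protein of the maturing 40S precursor, stood at 0.04 and NOB1, the nuclease that makes the 3′ end of 18S, at -0.12 (95% interval -0.30 to 0.06). For all 6 genes the EV and sgZNF507 libraries overlapped, as they did for 15553 of the 22010 genes tested.

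The median log2 fold change of the 37 genes was -0.05 in sgZNF507 against EV, -0.02 in sgZNF146 against EV and -0.00 in sgZNF507 against sgZNF146, beside medians of all genes tested within 0.01 of 0. Of the 37, 25 (67.6%) were below 0 in sgZNF507 against EV and 28 (75.7%) in sgZNF146 against EV, where 51.0% and 50.5% of all genes were. Both comparisons use the same EV libraries. Counted by order, 3 genes (8.11%) had both sgZNF507 libraries above both EV libraries, beside 14.0% of all genes tested, and these were RBM19, UTP20 and WDR46. Another 8 (21.6%) had both below, beside 15.3% of all genes. For sgZNF146 the counts were 1 (2.7%) above, EMG1, and 6 (16.2%) below, beside 14.0% and 14.6% of all genes. None of these shares was tested, since the members are read from the same libraries.

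**Figure D3:**
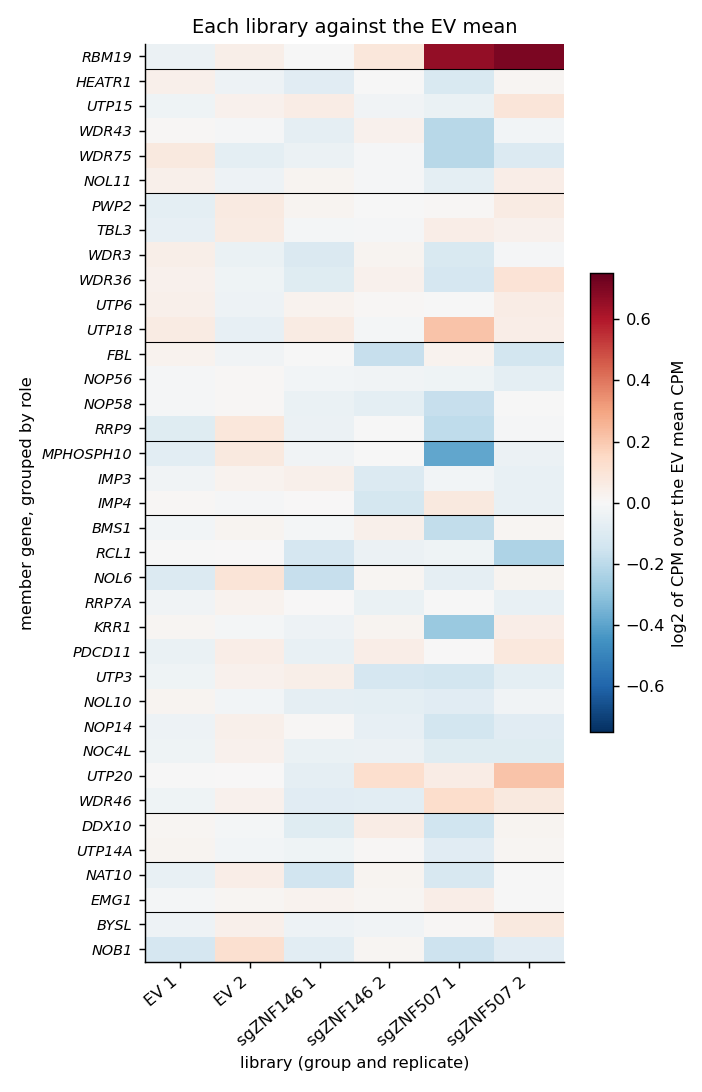
Log2 of the CPM in each library (x axis) over the EV mean of the same gene, for the 37 genes (y axis, lines separate the roles), from lower (blue) to higher (red). RBM19 is the 1 row that is deep red in both sgZNF507 libraries, and sgZNF507 replicate 1 is the bluest column for the other genes.

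The negative median in sgZNF507 against EV moved with 1 library. In sgZNF507 replicate 1, 18 of the 36 genes other than RBM19 had their lowest value of the 6 libraries, and their median deviation from the mean over libraries was -0.05 in log2, where sgZNF507 replicate 2 stood at 0.03. Without sgZNF507 replicate 1 the median of the 37 in sgZNF507 against EV was -0.003. The median in sgZNF146 against EV ran from -0.051 without EV replicate 1 to -0.0059 without sgZNF146 replicate 1. RBM19 did not follow this, at 0.42 and 0.46 above its mean over libraries in replicates 1 and 2. The same library was also lowest in the median of other assembly factors (-0.04 for those of the small and -0.04 for those of the large subunit), while its median over all genes was -0.005. Summed over the 36 genes, the level was 4211 ± 60.1 CPM in EV, 4134 ± 38.8 CPM in sgZNF146 and 4123 ± 112 CPM in sgZNF507 (SD, n = 2 each), so that the group means differed by less than the SD in sgZNF507. RBM19 made up 2.95 ± 0.08% of the summed 37 in EV, 3.09 ± 0.10% in sgZNF146 and 4.75 ± 0.03% in sgZNF507 (SD, n = 2 each).

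Levels of different genes were compared per length, as CPM per kb of the Ensembl canonical transcript. On this scale the members differed by 39.8-fold in EV, with a median of 30.9 CPM per kb. FBL was highest, at 245 and 236 CPM per kb in the EV libraries, followed by NOP56 at 158 and 159 CPM per kb and NOP14 at 66.8 and 70.3 CPM per kb, and these 3 did not overlap. UTP15 (5.90 and 6.18 CPM per kb) and KRR1 (6.19 and 6.05 CPM per kb) were lowest and overlapped each other. RBM19 stood at 30.0 and 31.8 CPM per kb in EV, rank 19 of the 37, below IMP4 at 35.0 and 34.7 CPM per kb and just above HEATR1, whose higher EV library of 29.9 CPM per kb was next to the lower one of RBM19. In sgZNF507 RBM19 stood at 48.8 and 50.3 CPM per kb, rank 7, where it overlapped WDR46 (49.0 and 47.0 CPM per kb) and lay below both libraries of NOP58 (50.6 and 57.0 CPM per kb). These ranks rest on 1 transcript length per gene.

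**Figure D4:**
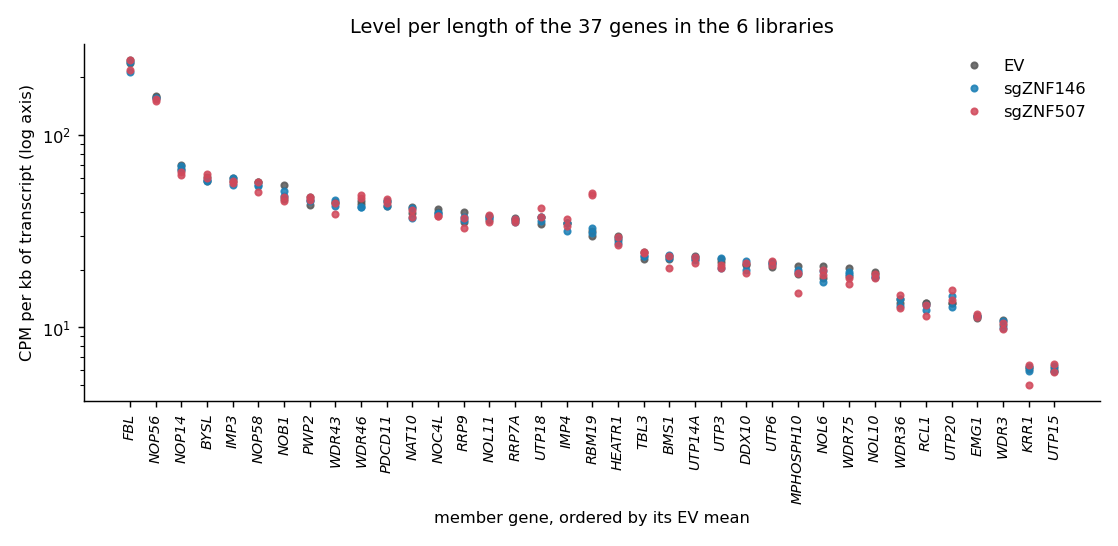
Level per length in CPM per kb of transcript (y axis, log scale) of the 37 genes (x axis, ordered by the EV mean), with 1 point per library coloured by group. FBL and NOP56 stand above the rest, and KRR1 and UTP15 lie lowest. The sgZNF507 points of RBM19, at 48.8 and 50.3, lie above its other points. Some other genes, such as WDR46, also have their sgZNF507 points apart, by less.

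Other genes of the pathway were read from lists kept apart from the members. Of 31 other small-subunit assembly factors none was called in sgZNF507 against EV, with a median log2 fold change of -0.04 and a range from -0.21 (FCF1, a nuclease-fold protein of the processome) to 0.14 (TSR3, which modifies 18S RNA late). Of 57 large-subunit assembly factors none was called, with a median of -0.05 and a range from -0.22 (LYAR) to 0.08 (EFL1, a GTPase that frees the maturing large subunit). Of 22 genes of RNA polymerase I transcription none was called, with a median of -0.01 and a range from -0.19 (TAF1D) to 0.08 (TAF1C), both subunits of the selectivity factor. At an unadjusted p under 0.05, FCF1, NCL and SURF6 of the first list, BRIX1, LYAR and NIP7 of the second and POLR2L and TAF1D of the third were reached, all lower in sgZNF507, which is 3 of 31, 3 of 57 and 2 of 22 genes. Over all genes tested, 3.39% were reached in either direction and 431 of 22010 were lower. With the replicate number as a block, TSR3 (adjusted p = 0.0227, higher), BRIX1 (0.0486, lower) and LYAR (0.0175, lower) passed in sgZNF507 against sgZNF146 by edgeR, and no gene of these 3 lists passed in sgZNF507 against EV.

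The U3 RNA itself, which the box C/D members carry, is made from several near-identical genes, and 4 of them had counts. SNORD3B-2 (chromosome 17, 18966659 to 18967449, minus strand, GRCh37) read 479 and 344 CPM in EV, 551 and 386 CPM in sgZNF146 and 162 and 211 CPM in sgZNF507. Both sgZNF507 libraries were below the other 4. SNORD3B-2 fell by 1.14 on the log2 scale in sgZNF507 against EV (standard error 0.17, adjusted p = 0.0181, edgeR) and by 1.33 against sgZNF146 (adjusted p = 0.00685). The call against EV was not made by DESeq2 (adjusted p = 0.191) and was lost without EV replicate 1 (log2 fold change -0.88, adjusted p = 0.233) or without sgZNF507 replicate 1 (-0.97, adjusted p = 0.0758). SNORD3A read 47.0 and 32.4 CPM in EV, 42.0 and 41.6 CPM in sgZNF146 and 34.9 and 30.0 CPM in sgZNF507, with a log2 fold change of -0.29 against EV (95% interval -0.60 to 0.01). It passed against sgZNF146 with the replicate block (adjusted p = 0.00759, edgeR), but not in the main fit or by DESeq2 on all 6 libraries. The other alternatives were not read for SNORD3A. SNORD3B-1 and SNORD3C, at 3.97 to 5.36 and 1.09 to 2.17 CPM per library, overlapped between the groups.

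**Figure D5:**
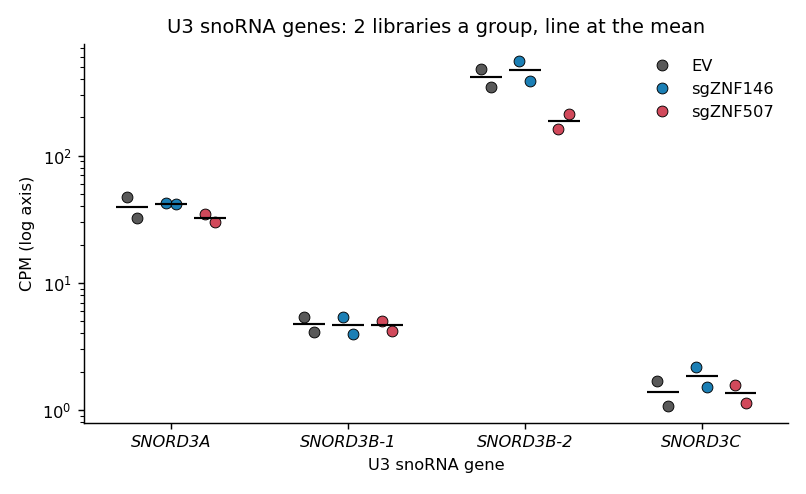
CPM (y axis, log scale) of 4 U3 snoRNA genes (x axis) in the libraries of each group, with a line at the mean of 2. SNORD3B-2 lies at 162 and 211 CPM in sgZNF507 and between 344 and 551 CPM in the 4 other libraries.

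The first 120 bases of the 4 genes are printed to show how little separates their reads. They come from GENCODE transcripts on GRCh37, read 5′ to 3′, and capitals mark each position at which any of them differs.
SNORD3A: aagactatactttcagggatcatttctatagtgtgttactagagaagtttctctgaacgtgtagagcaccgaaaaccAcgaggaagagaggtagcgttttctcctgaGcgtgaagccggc
SNORD3B-1: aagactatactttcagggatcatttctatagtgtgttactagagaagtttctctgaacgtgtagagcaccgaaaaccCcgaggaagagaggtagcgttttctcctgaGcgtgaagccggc
SNORD3B-2: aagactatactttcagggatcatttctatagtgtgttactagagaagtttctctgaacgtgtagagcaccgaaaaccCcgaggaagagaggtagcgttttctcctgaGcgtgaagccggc
SNORD3C: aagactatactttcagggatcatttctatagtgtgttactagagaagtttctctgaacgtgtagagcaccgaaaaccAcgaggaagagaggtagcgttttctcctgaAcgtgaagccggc

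Over the first 200 bases each of the other 3 differed from SNORD3A at 1 position, A78C in SNORD3B-1 and SNORD3B-2 and G108A in SNORD3C, counted from 1 at the 5′ end of the gene. SNORD3B-1 and SNORD3B-2 shared their first 266 bases without a difference. Short reads from this stretch can belong to more than 1 of these genes, so the count of a single copy is uncertain, and the total of U3 RNA was not measured.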

How the data were processed

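RNA-seq of 6 HEK293 libraries, 2 each of EV, sgZNF146 and sgZNF507, was analysed from the deposited whole-number counts per gene. Per the study's methods, the authors clipped reads, removed ribosomal reads, mapped the rest to hg19 with TopHat2 as a stranded library with the Ensembl 82 annotation, and counted them with featureCounts. Counts hold no molecular identifiers, so PCR copies are counted. Removal of reads that match several places, if done, would lower near-identical genes such as U3.

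Symbols, coordinates and lengths came from GENCODE 44 on GRCh37. Counts were filtered with filterByExpr, scaled by TMM and tested with edgeR 4.0.16 (glmQLFit, glmQLFTest, R 4.3.3) on all 6 libraries, with Benjamini-Hochberg adjustment over 22010 genes and a threshold of 0.05. Standard errors were derived from the F statistic. The steps were tested on simulated data. DESeq2 1.42.0, other normalizations and filters, 4 libraries alone, the replicate block and leaving out each library were alternatives. Deviations of same-numbered libraries correlated across genes between groups (r = 0.138, 0.176 and 0.145). The labels do not say what such libraries share, so the main fit took group alone, without pairs. Only the replicate block took the numbers as pairs. Replicates differed by more than counting noise in every group (chi-square per degree of freedom 6.38 to 9.6), so none was a repeat deposit.

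Named are all 37 members, with per-library values for RBM19, the 3 highest and 3 lowest log2 fold changes of each contrast and the ends of the order per length. Members and lists were chosen with earlier results of these data known. KRR1 and the genes set beside RBM19 in the order per length, the genes of other lists at an unadjusted p under 0.05, and the sequence motifs were chosen after values were seen. Figures were drawn with matplotlib 3.10.9.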

Additional observations from a re-analysis of the deposited data

How the results depend on the processing

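RBM19 kept its call in sgZNF507 against EV and against sgZNF146 under all 14 alternatives, with log2 fold changes from 0.65 to 0.72 and from 0.60 to 0.69 without single libraries. No other member passed the threshold under any alternative (lowest adjusted p = 0.128, edgeR, WDR46 with the replicate block). The median of the 37 members without single libraries ran from -0.062 to -0.0029 in sgZNF507 against EV and from -0.028 to 0.033 in sgZNF507 against sgZNF146. In the second comparison the median, -0.0048, was so near 0 that its sign also turned without EV replicate 1, without sgZNF146 replicate 2, without a filter and by DESeq2 on 4 libraries. In sgZNF146 against EV it ran from -0.051 to -0.0059. With the replicate number as a block (pairs), RBM19 had a log2 fold change of 0.68 in sgZNF507 against EV (adjusted p = 3.8e-14, edgeR), and over all genes the calls went from 40 to 121, from 0 to 33 in sgZNF146 against EV and from 38 to 196 in sgZNF507 against sgZNF146. The block changed no call of a member. Its effect on 4 genes of the other lists is given with them. SNORD3B-2 against EV passed under 10 of 14 alternatives, and without single libraries its log2 fold change ran from -1.37 to -0.88. With DESeq2 on 4 libraries its adjusted p was 0.0866. The call of ZNF507 in sgZNF507 against sgZNF146 was lost without sgZNF146 replicate 1 (log2 fold change -0.61, adjusted p = 0.0502) or without sgZNF146 replicate 2 (-0.57, adjusted p = 0.056), beside -0.59 with all libraries. The cause of these losses was not tested. With 2 libraries a group, the precision differed between members, with standard errors from 0.06 to 0.11 in log2, and a change inside a member's own 95% interval could not be told from none.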

Other observations

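Genes that start within 1 Mb of the start of RBM19 were read to see whether its neighbours moved with it. Of 41 annotated genes, 15 were tested, and none was called in sgZNF507 against EV by edgeR or by DESeq2, beside 0.182% of all genes tested by edgeR and 0.215% by DESeq2. The antisense gene TBX3-AS1, at under 1 CPM in every library, was the 1 gene reached at an unadjusted p under 0.05, beside 3.39% of all genes. The nearest tested gene was ENSG00000257359, antisense to RBM19, which starts 33.8 kb away. It read 0.20 and 0.25 CPM in EV, 0.39 and 0.20 CPM in sgZNF146 and 0.56 and 0.41 CPM in sgZNF507. Its log2 fold change in sgZNF507 against EV was 1.07 (95% interval -0.08 to 2.22), on 5 to 13 counts per library. The next nearest, LINC01234, had -0.06 (95% interval -0.56 to 0.45). DDX54, a helicase of large-subunit assembly 781 kb away, read 187 and 209 CPM in EV, 203 and 212 CPM in sgZNF146 and 206 and 200 CPM in sgZNF507, a log2 fold change of 0.03 (95% interval -0.11 to 0.18) in sgZNF507 against EV. TBX3, a T-box transcription factor 718 kb away, read 75.7 and 79.9 CPM in EV, 76.1 and 79.2 CPM in sgZNF146 and 78.4 and 82.5 CPM in sgZNF507, a log2 fold change of 0.05 (95% interval -0.10 to 0.20).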
